A study of Rattus norvegicus with 12 samples.

Results

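The cluster that runs from miR-379 to miR-410 is a row of microRNA (miRNA) genes in the imprinted Dlk1-Dio3 domain, and the 10 members described here, which lie between miR-379 and the miR-376 genes, were chosen by name among the 375 miRNA assays of the card. They were miR-379, miR-411, miR-380-5p, miR-323-3p, miR-329, miR-494, miR-495, miR-376c, miR-376b and miR-376a. They are not all the products of that stretch that the card read, since by RefSeq hairpin positions at least 6 further assays lie in it, of which 3 were tested (miR-758, miR-543 and miR-667) and are given with the rest of the domain. All 10 members passed the filter on undetermined wells, which kept 222 of the 375 assays. The samples came from the medial entorhinal cortex of Long Evans rats with no genetic modification named in the labels. Of these, 5 were stellate cells, neurons labelled backwards along their axons with the dye DiO after injection on both sides into the dentate gyrus at postnatal day 2, with sorting at day 4 or 5, and 5 were the non-stellate cells, the dye-negative cells of the same dissociations. The other 2 were pieces of dissected tissue from day 23 that were not dissociated.

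The stellate label rests on a projection to the dentate gyrus, and the dye-negative samples hold every other cell that survived dissociation, including stellate cells the dye did not reach. The description field of non-stellate 3 and 5 calls them labelled, against their title, source and fluorescence, and they were kept as non-stellate. The tissue also differed from the sorted samples in age, in the RNA kit and in the changed pre-amplification used for the low RNA of the sorted samples, so age, cell isolation and RNA handling cannot be told apart in any comparison with tissue. In bulk samples, fewer cells of a type and less RNA per cell cannot be told apart either.

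Genes of this cluster are read from the maternal chromosome, processed out of a long transcript and enriched in neurons, where several of the products act in dendrites and synapses. Each mature miRNA guides silencing of messenger RNAs mainly through its seed, bases 2 to 8, so products of 1 cluster can address different targets. Transcripts of the miR-376 genes are also known as substrates of adenosine-to-inosine editing in brain, and whether the assays read edited forms was not tested.

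The mature sequences are shown to compare the seeds of the 10 products, which lie close together in the genome. RefSeq (build GRCr8) held a mature sequence for 10 of 10, given 5′ to 3′ in genome order with the seed in capitals.
miR-379: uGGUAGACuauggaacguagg
miR-411: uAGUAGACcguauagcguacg
miR-380-5p: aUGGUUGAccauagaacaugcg
miR-323-3p: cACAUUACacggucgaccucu
miR-329: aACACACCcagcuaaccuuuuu
miR-494: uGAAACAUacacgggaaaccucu
miR-495: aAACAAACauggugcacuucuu
miR-376c: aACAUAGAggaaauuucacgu
miR-376b: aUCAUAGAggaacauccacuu
miR-376a: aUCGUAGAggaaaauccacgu

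The 10 sequences had 10 different seeds. They lie on the plus strand of rat chromosome 6, from miR-379 at chr6:134543460-134543480 to miR-376a at chr6:134559421-134559441, a span of 16.0 kb. By the RefSeq gene table, 9 of them fall inside the long non-coding gene model LOC102555254 and miR-376a in the next one, LOC120103623, and the table does not tell exon from intron. The arm was fixed by the assay name, or by a single known product, for 3 members and taken from older naming, in which the unsuffixed name is the major arm, for the other 7. Assays carry mouse names, their own sequences were not used here, and the sequences printed are those of the rat.

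The miR-376 products are the close relatives of the set. Counting from base 1 at the 5′ end, miR-376a and miR-376b were identical at 18 of 21 bases and differed by G4A, A13C and G20U, with 1 difference in the seed. MiR-376a and miR-376c were identical at 17 bases and differed by U2A, G4A, A14U and C16U, with 2 in the seed. MiR-376b and miR-376c were identical at 16 bases and differed by U2A, C13A, A14U, C16U and U20G, with 1 in the seed. Whether the 3 assays cross-read was not tested, so each of their values may hold some signal of the others.

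Levels were read as Ct, the PCR cycle at which a well crosses its threshold, a log2 scale that falls as abundance rises. The deposited normalized value is Ct minus the mean of 4 U6 wells of the same sample, called U6 scaling here. The number of miRNA assays with a determined Ct was 234 to 260 in stellate, 203 to 241 in non-stellate and 292 to 302 in tissue samples, and the mean U6 Ct was 16.5 to 19.0, 17.7 to 20.2 and 15.6 to 16.0. Over the 176 assays with a Ct in each of the 12 samples, the median was 28.0 to 29.5 in stellate, 28.9 to 30.9 in non-stellate and 23.7 in both tissue samples. Relative to U6, the sorted samples therefore read lower across the card, and levels are also given relative to that median (median centring), on which 0 is the sample's median assay. Levels of different members were not ranked, because assays differ in efficiency. Non-stellate 5 had the fewest determined assays and the highest U6 Ct, and it held 4 of the 7 undetermined member wells.

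Members were detected widely. Of the 100 member wells of the sorted samples 7 were undetermined, 7.00%, against 3.65% of all tested wells, and of the 20 member wells of tissue 0 were. The undetermined wells fell on miR-376c (stellate 3, non-stellate 3 and 5), miR-329 (non-stellate 3 and 5), miR-380-5p (non-stellate 5) and miR-494 (non-stellate 5). These wells carry Ct 40 in the deposited table, so a value there is a bound and not a reading. The 6 members determined in every sample were miR-379, miR-411, miR-323-3p, miR-495, miR-376b and miR-376a.

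**Figure D1:**
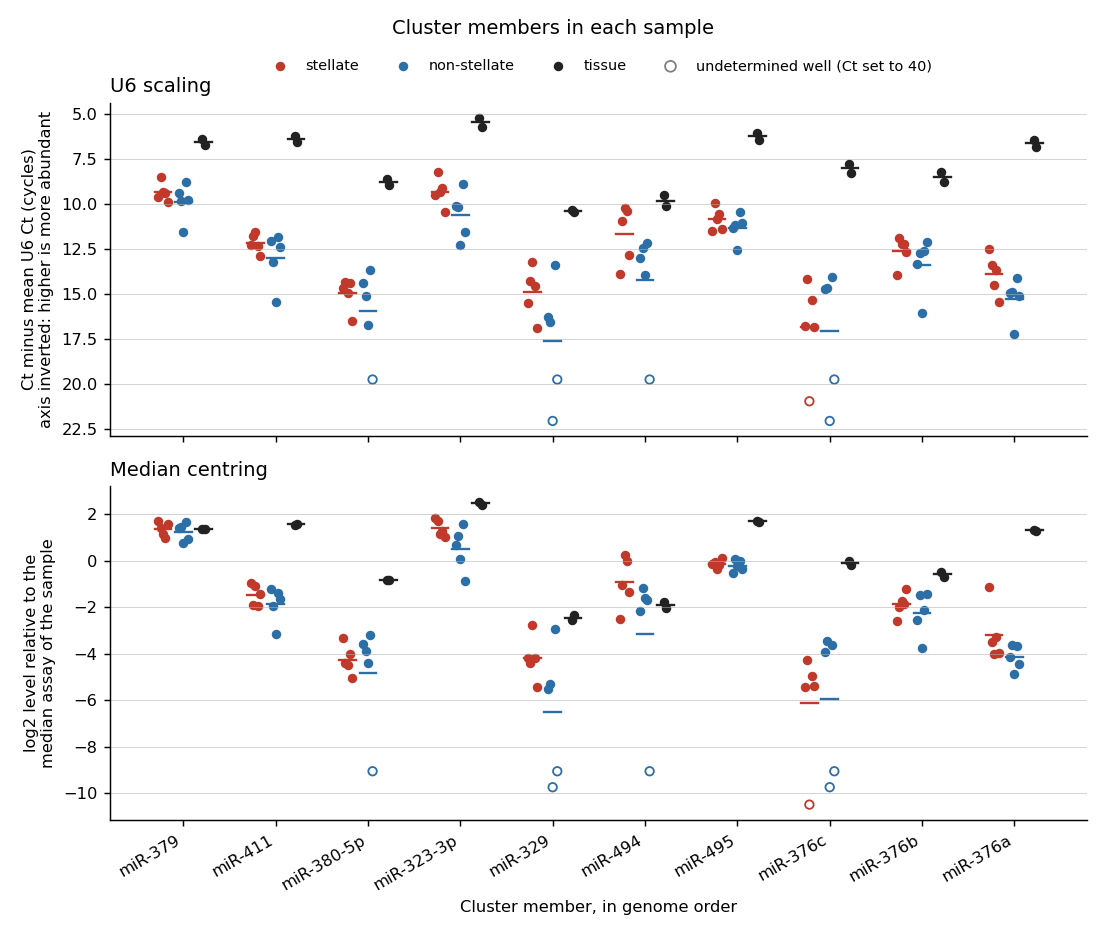
Level of the 10 members in each of the 12 samples, in genome order, as Ct minus mean U6 Ct in cycles on an inverted axis (top) and as log2 level relative to the sample's median assay (bottom). Points are samples, open points are undetermined wells set to Ct 40, and lines are group means with those wells included. Both tissue samples lie above all 10 sorted samples for 10 of 10 members in the top panel and for 8 of 10 in the bottom panel.

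Tissue was set against the average of the sorted groups to see which members stood higher in the older, intact cortex. Under U6 scaling, both tissue samples lay above all 10 sorted samples for 10 of 10 members, against 68.0% of all tested assays, and 9 of the 10 passed the limma test (adjusted p under 0.05 over 222 assays), all higher in tissue. Of all tested assays, 62.2% were called higher and 1.35% lower, so the U6 count alone does not set the members apart. Their median log2 difference was 5.37 against 3.02 over all tested assays, and 10 of 10 members lay above the latter.

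Median centring took out the shift shared by the card, moving the median of all tested assays from 3.02 to 0.03. On that scale 23.9% of assays were called higher in tissue and 25.2% lower, against 7 of the 10 members called higher and 0 lower. The median of the members was 2.38, and both tissue samples exceeded all 10 sorted samples for 8 of 10 members, against 27.0% of all assays. The members called on both scales were miR-376a, miR-376c, miR-411, miR-380-5p, miR-495, miR-323-3p and miR-376b. MiR-379 was called under U6 scaling alone, as was miR-329, and miR-494 on neither. Both comparisons described here use the same sorted samples.

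**Figure D2:**
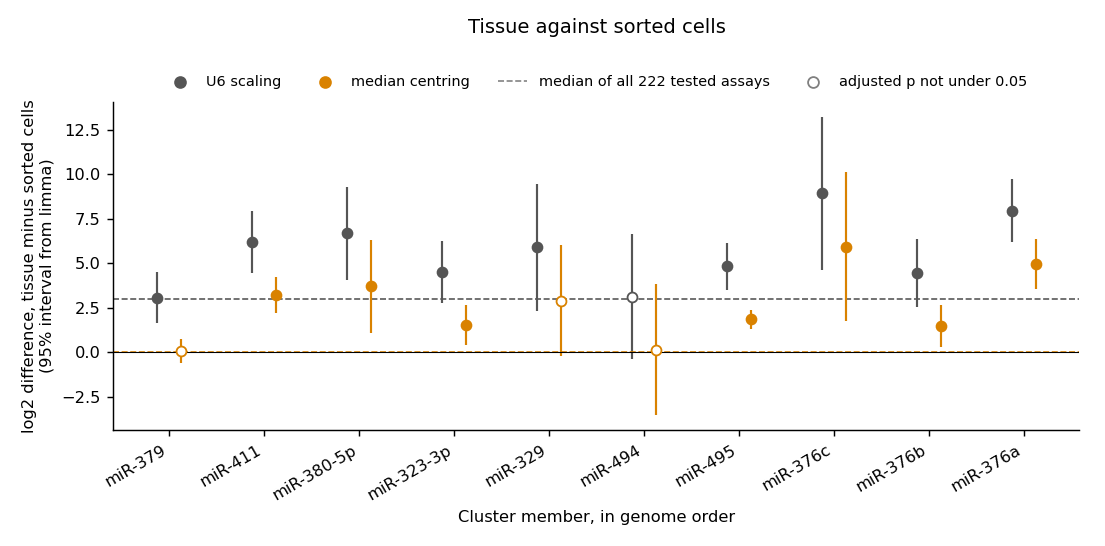
Log2 difference of each member, tissue (n = 2) minus the mean of the sorted groups (n = 5 each), with its 95% limma interval, under U6 scaling and median centring. Filled points passed the adjusted threshold and dashed lines mark the median of all 222 tested assays (3.02 and 0.03). MiR-376c and miR-376a have the highest points on both scales, while miR-379 and miR-494 sit at 0.07 and 0.14 under median centring.

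MiR-376a is the last of the 10 along the cluster. Its level relative to the median assay was -1.13, -3.50, -4.03, -3.29 and -3.97 in stellate samples 1 to 5. It was -4.16, -3.63, -4.89, -3.66 and -4.44 in non-stellate samples 1 to 5, and 1.33 and 1.28 in tissue. Every sorted sample was below the median assay and both tissue samples above it, with no overlap. The difference was 4.98 on the log2 scale (95% interval 3.56 to 6.39), a 31.5-fold higher level, with an adjusted p of 1.00e-04 by limma. Under U6 scaling it was 7.96 (adjusted p = 2.32e-05 by limma).

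MiR-376c read -5.42, -4.27, -4.95 and -5.40 relative to the median assay in stellate samples 1, 2, 4 and 5. It read -3.94, -3.44 and -3.61 in non-stellate samples 1, 2 and 4, and 0.00 and -0.18 in tissue. The remaining 3 sorted wells were undetermined, and no determined sorted reading reached the tissue. The difference was 5.94 (95% interval 1.74 to 10.1, adjusted p = 0.0237 by limma) with undetermined wells at 40. With those wells missing it was 4.24 (adjusted p = 2e-05 by limma), so the size of this difference depended on how they were treated.

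MiR-376b moved in the same direction by less. Relative to the median assay it was -2.59 to -1.23 in stellate, -3.75 to -1.43 in non-stellate and -0.48 and -0.69 in tissue samples. The groups did not overlap, and the difference was 1.48 (95% interval 0.29 to 2.67, adjusted p = 0.0414 by limma). The genes of miR-376b and miR-376a start 15.45 and 15.96 kb from that of miR-379, next to each other, and their differences of 1.48 and 4.98 were measured on assays for sequences identical at 18 of 21 bases. The difference between these differences was not tested.

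MiR-411, which lies 1.14 kb from miR-379, read -0.95, -1.90, -1.10, -1.95 and -1.43 relative to the median assay in stellate samples. It read -1.23, -1.97, -3.14, -1.40 and -1.67 in non-stellate samples and 1.55 and 1.57 in tissue. Tissue stood clear of every sorted sample by 2.49 or more. The difference was 3.23 (95% interval 2.22 to 4.24, adjusted p = 1.80e-04 by limma), or 9.37-fold.

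MiR-379, the gene that gives the cluster its name, behaved differently on the scale. Its U6-scaled Ct was 9.63, 8.49, 9.33, 9.40 and 9.87 in stellate samples. It was 9.40, 9.81, 11.6, 8.79 and 9.79 in non-stellate samples and 6.37 and 6.73 in tissue. On this scale both tissue samples were the more abundant, with a log2 difference of 3.06 (adjusted p = 1.50e-03 by limma), close to the 3.02 of all assays. Relative to the median assay miR-379 was 0.98 to 1.72 in stellate, 0.77 to 1.67 in non-stellate and 1.37 in both tissue samples, so tissue lay within the sorted range. The difference there was 0.07 (95% interval -0.59 to 0.73, adjusted p = 0.880 by limma).

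MiR-380-5p, from the gene after miR-411, was -5.04 to -3.32 relative to the median assay in stellate samples and -4.41 to -3.19 in the 4 determined non-stellate samples. In tissue it was -0.85 and -0.83, above all of them. The difference was 3.70 (95% interval 1.08 to 6.32, adjusted p = 0.0237 by limma), and 3.17 with the undetermined well missing.

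MiR-495 had the narrowest spread of the members among sorted samples. Relative to the median assay it was -0.15, -0.04, -0.38, -0.19 and 0.10 in stellate samples. It was -0.51, 0.06, -0.24, -0.01 and -0.36 in non-stellate samples and 1.73 and 1.65 in tissue. All sorted samples lay within 0.51 of the median assay and tissue was well above it, with a difference of 1.86 (95% interval 1.33 to 2.38, adjusted p = 9.76e-05 by limma). MiR-323-3p was 1.01 to 1.85 in stellate, -0.86 to 1.57 in non-stellate and 2.41 to 2.54 in tissue samples, again with no overlap. Its difference was 1.53 (95% interval 0.40 to 2.65, adjusted p = 0.0288 by limma).

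MiR-329 is one of the cluster products known to be needed for activity-dependent growth of dendrites. Relative to the median assay it was -5.44 to -2.76 in stellate samples, -5.51, -5.33 and -2.95 in the determined non-stellate samples and -2.35 and -2.56 in tissue. Tissue lay above every sorted sample, by 0.20 over the nearest, and the difference of 2.90 (95% interval -0.23 to 6.03) missed the threshold (adjusted p = 0.113 by limma). With the 2 undetermined wells missing it was 1.94 (adjusted p = 0.0451 by limma). Under U6 scaling the difference was 5.89 (adjusted p = 6.94e-03 by limma), and without tissue 1 it was 5.82 and missed the threshold (adjusted p = 0.0586 by limma).

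MiR-494 had a U6-scaled Ct of 13.9, 10.9, 10.2, 10.4 and 12.8 in stellate samples. It was 13.0, 12.4, 13.9 and 12.1 in non-stellate samples 1 to 4, undetermined in non-stellate 5, and 9.51 and 10.1 in tissue. Tissue was past every sorted sample by 0.11 cycles only. The log2 difference of 3.13 (95% interval -0.36 to 6.63) did not pass (adjusted p = 0.105 by limma). It was 2.44 and passed without non-stellate 5 (adjusted p = 0.0358 by limma), while under median centring it was 0.14 (adjusted p = 0.952 by limma) and, with the undetermined well missing, -0.60 (adjusted p = 0.400 by limma).

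Cell type markers were read in the same samples. The summed level of 5 neuronal miRNAs, relative to the median assay on the log2 scale, was 7.57 to 9.02 in sorted samples and 8.59 to 8.65 in tissue, and all 5 were determined in every sample. Summed vascular markers (4) were 1.17 to 4.42 in sorted samples and 4.58 to 4.75 in tissue, and blood and microglial markers (6) 0.78 to 5.24 and 3.67 to 3.74. By these sums, in which the most abundant assays weigh most, tissue lay above the sorted range for the vascular list. It lay inside that range for the neuronal and the blood and microglial lists. Of the blood and microglial list, miR-142-5p and miR-451 were undetermined in all sorted samples and read in tissue. Of the 2 oligodendrocyte markers, neither passed the filter, and both were read in tissue (-1.80 to -1.29 summed). Stellate samples with a reading gave -7.03 to -6.79, from miR-338-3p alone, and non-stellate ones -2.60 to -1.80, from miR-219 alone. The tissue sums hold both markers, so these ranges are unlike measures and were not compared. In 5 of 10 sorted samples neither marker was read. The choroid plexus and ependyma list (6) was 1.88 to 4.24 in sorted samples and 2.39 to 2.81 in tissue, inside the sorted range, with miR-449b undetermined in tissue. Under median centring, 2 of 5 neuronal, 2 of 4 vascular, 1 of 4 blood and microglial and 1 of 4 choroid plexus and ependyma assays tested were called higher in tissue, and 2 further assays of the last list lower, against 23.9% higher and 25.2% lower over all tested assays. The median log2 difference of the tested assays on that scale was 1.28 for the neuronal and 3.07 for the vascular list. It was 1.00 for the blood and microglial list, -1.97 for the choroid plexus and ependyma list and 0.03 over all tested assays. The part of the markers in the member differences was not tested.

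Ct differences within a sample need no scaling, and a description of this kind was added after the values had been seen. Relative to miR-379 in the same sample and with undetermined wells left out, miR-376a read -5.66 to -2.85 in the 10 sorted samples and -0.09 and -0.04 in tissue, a mean difference of 4.91. MiR-376c read -7.14 to -4.88 in 7 sorted samples and -1.55 to -1.37 in tissue, a mean difference of 4.43. MiR-411 went from between -3.91 and -2.25 to 0.18 and 0.20, and miR-380-5p from between -6.63 and -4.86 in 9 sorted samples to -2.22 and -2.20.

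The remaining members shifted less against miR-379. MiR-495 was 1.79 higher in tissue on average, miR-323-3p 1.46 and miR-376b 1.42, each without overlap, and miR-329 1.94, with tissue overlapping the highest sorted sample by 0.02. MiR-494 read -4.24 to -0.91 in 9 sorted samples and -3.40 to -3.14 in tissue, inside the sorted range. Tissue thus stood above all determined sorted samples for 7 of the 9 members, against 25.8% of all 221 other assays read relative to miR-379 in the same way. Since miR-379 differed by 0.07 after median centring, these readings stay close to the median-centred ones and are no separate support for them.

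**Figure D3:**
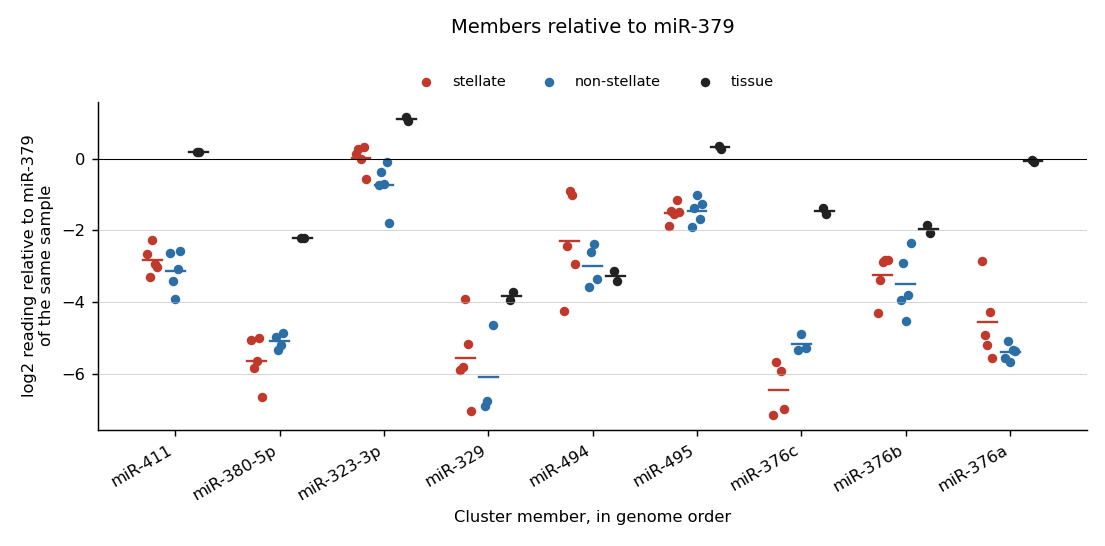
Log2 reading of 9 members relative to miR-379 of the same sample (Ct of miR-379 minus Ct of the member) in stellate, non-stellate and tissue samples, in genome order. Points are samples with a determined Ct and lines are group means. Tissue lies above every sorted sample for 7 of the 9 members, against 25.8% of all assays read the same way, and inside the sorted range for miR-494.

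Stellate and non-stellate cells were compared because the study looked for miRNAs that distinguish the neurons projecting to the dentate gyrus. No assay passed in limma under U6 scaling or median centring, 0% of the 222 tested either way, with 16 and 28 assays at an unadjusted p under 0.05 and 0 of the members among them on either scale. Those fits had no replicate block. With the block, 26 and 48 assays had an unadjusted p under 0.05, 2 and 1 of the members among them, and again 0 passed after adjustment. With undetermined wells included, stellate and non-stellate samples overlapped for 10 of 10 members on both scales. For comparison, the groups did not overlap for 0% of all assays under U6 scaling and 4.05% under median centring. The overlap of miR-376c under median centring rested on its undetermined wells. Its determined readings on that scale were -5.4 to -4.3 in stellate and -3.9 to -3.4 in non-stellate samples, without overlap. Under U6 scaling its determined readings did overlap.

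All 10 members had a positive log2 difference (stellate minus non-stellate) under U6 scaling, from 0.25 to 2.72, with a median of 0.89 against 0.46 over all tested assays. Under median centring 9 of 10 did, and miR-376c fell on the other side of 0 (-0.15), with a median of 0.49 against 0.07. With non-stellate 3 and 5 left out, the median was 0.24 under U6 scaling and 0.08 under median centring, and 4 of the members were below 0 on the latter. Those samples had high median Ct (30.3 and 30.9) and 6 of the 7 undetermined wells.

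**Figure D4:**
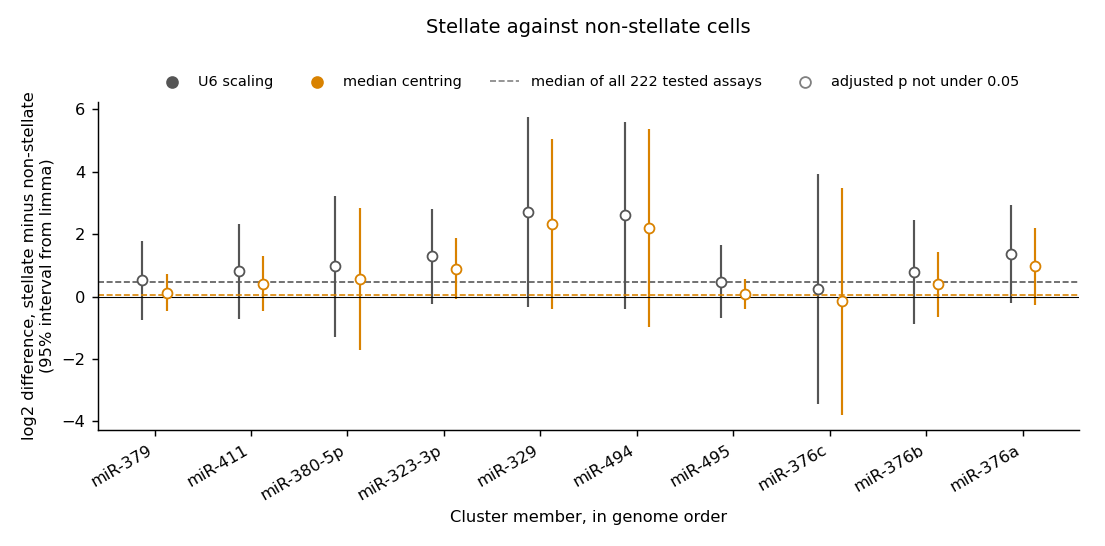
Log2 difference of each member, stellate minus non-stellate (n = 5 each), with its 95% limma interval, under U6 scaling and median centring. Open points did not pass the adjusted threshold, dashed lines mark the median of all tested assays (0.46 and 0.07), and every interval on both scales includes 0.

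The largest differences between the sorted groups rested on undetermined wells. MiR-329 differed by 2.72 (95% interval -0.33 to 5.77, adjusted p = 0.587 by limma), and by 0.52 with its 2 undetermined wells missing. Its U6-scaled Ct was 15.5, 14.3, 13.2, 14.6 and 16.9 in stellate samples and 16.3, 16.6 and 13.4 in the determined non-stellate samples 1, 2 and 4. The lowest Ct of each group, 13.2 and 13.4, lay side by side.

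MiR-494 differed by 2.60 (95% interval -0.39 to 5.59, adjusted p = 0.587 by limma) and by 1.22 without its undetermined well. It was higher in the stellate sample of 4 of the 5 same-numbered pairs, in pair 5 against an undetermined well, and lower in pair 1. MiR-494 is one of the miRNAs that the study itself reported as up-regulated in the labelled cells of these samples, whereas no assay passed in the fit used here. The reason for that difference was not tested. Since the samples are the same, the direction of miR-494 here is not independent evidence. Relative to miR-379 it was -4.24 to -0.91 in stellate and -3.58 to -2.39 in the determined non-stellate samples, with the non-stellate readings inside the stellate range.

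MiR-376a and miR-323-3p were determined in every sample. MiR-376a differed by 1.37 under U6 scaling (95% interval -0.19 to 2.93, adjusted p = 0.587 by limma) and by 0.97 under median centring (adjusted p = 0.415 by limma). Its stellate sample was the higher of the pair in 5 of 5 pairs after median centring, by 0.14 to 3.03, and stellate 1 alone gave the 3.03. MiR-323-3p differed by 1.29 (95% interval -0.22 to 2.81, adjusted p = 0.589 by limma) and by 0.90 after median centring (adjusted p = 0.350 by limma), with 4 of 5 pairs higher in stellate cells.

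The other members had smaller differences under median centring, some with wide intervals. MiR-380-5p differed by 0.57 (95% interval -1.70 to 2.85, adjusted p = 0.790 by limma) with its undetermined well included. MiR-376b differed by 0.39 (95% interval -0.65 to 1.43, adjusted p = 0.628 by limma). Under median centring miR-379 differed by 0.13 (95% interval -0.46 to 0.72), miR-495 by 0.08 (95% interval -0.40 to 0.55) and miR-411 by 0.42 (95% interval -0.47 to 1.31). The corresponding adjusted p-values by limma were 0.806, 0.872 and 0.579. Under U6 scaling the intervals were wider, -0.74 to 1.79 for miR-379 and -0.70 to 1.64 for miR-495. That of miR-376c under median centring (-3.79 to 3.50) includes its undetermined wells and leaves room for either direction. MiR-376c had readings in both samples of pairs 1, 2 and 4. There, stellate minus non-stellate was -1.48, -0.83 and -1.34 after median centring and -2.035, 0.53 and -1.26 under U6 scaling. Pair 3 was undetermined in both samples and compares nothing, and pair 5 was higher in stellate cells through the 40 entered for non-stellate 5. With undetermined wells missing, the difference of miR-376c was -1.28 under U6 scaling (adjusted p = 0.675 by limma). With those wells missing and median centring, it was -1.345 (95% interval -2.25 to -0.44). That interval excludes 0, with an unadjusted p of 0.00889 by limma, but the adjusted p of 0.268 did not pass. This last fit was added after the values had been seen.

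None of the 17 marker assays tested passed between the sorted groups. Under median centring their median log2 difference, stellate minus non-stellate, was 0.57 for the neuronal and 1.02 for the vascular list. It was 0.25 for the blood and microglial list, 1.055 for the choroid plexus and ependyma list and 0.07 over all tested assays. Summed vascular markers were 1.25 to 4.42 in stellate and 1.17 to 2.74 in non-stellate samples, blood and microglial markers 2.09 to 5.24 and 0.78 to 2.41, and neuronal markers 7.57 to 8.74 and 8.12 to 9.02, each with overlap. Choroid plexus and ependyma markers were 2.16 to 4.24 and 1.88 to 2.51, also with overlap. The oligodendrocyte sums were -7.03 to -6.79 in 3 stellate samples, from miR-338-3p alone, and -2.60 to -1.80 in 2 non-stellate samples, from miR-219 alone. These are readings of different assays, so the sums cannot be compared between the sorted groups. Their part in the stellate and non-stellate values of the members was not tested.

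Members rose and fell together to a limited degree across the sorted samples. Over the 10 samples and the 6 members determined in all of them, Pearson's r of the median-centered levels had a median of 0.47 over 15 pairs, from -0.12 (miR-411 and miR-495) to 0.70 (miR-379 and miR-323-3p). Over all 15400 pairs of the 176 assays the median was 0.02. MiR-376b and miR-376a, the closest in sequence, had an r of 0.03. These points share their cards, pre-amplification and RNA amount, and the values are a description.

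Likeness was taken to the mean of the 6 members determined in all samples. The assays outside the 10 members most like that mean over the 10 sorted samples, among 170 ranked, were miR-382 (r = 0.96), miR-409-3p (0.91), miR-434-3p (0.91), miR-487b (0.90) and miR-218 (0.89). The first 4 are other products of the Dlk1-Dio3 domain, and miR-218 comes from elsewhere. Of the 20 most alike, 11 belong to the domain, which gave 19 of the 170 assays ranked. The likeness describes samples that differ in cell type, RNA amount and labelling together.

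The rest of the domain's miRNAs were compared with tissue in the same fit. Of its 43 other assays, 24 were tested, and under U6 scaling 19 were called higher in tissue and 0 lower, against 62.2% and 1.35% of all tested assays, with a median of 3.51 against 3.02 over all assays. Under median centring 7 of the 24 were called higher and 4 lower, near the 23.9% and 25.2% of all tested assays, with a median of 0.53 against 0.03. The 3 that lie among the members differed by 0.40 (miR-758), 0.82 (miR-543) and -1.002 (miR-667) and were not called. MiR-136 (5.07), miR-544 (4.56), miR-410 (3.88), miR-369-5p (3.84), miR-434-3p (3.27), miR-539 (2.18) and miR-487b (1.69) were the higher ones.

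The domain products called lower in tissue under median centring were miR-770-3p (-2.74), miR-370 (-2.38), miR-134 (-1.97) and miR-381 (-1.48). MiR-134, which limits the size of dendritic spines, and miR-381 belong to the same cluster downstream of the members described. MiR-410, which closes that cluster, was among the higher ones. Between stellate and non-stellate cells, 0 of the 24 were called, with a median of 1.10 under U6 scaling and 0.71 under median centring.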

How the data were processed

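For 12 samples, RNA was reverse transcribed and pre-amplified with Megaplex primers and read on the Rodent A TaqMan array card. The raw table deposited by the authors holds Ct, a log2 scale, with 40 in undetermined wells, read with ViiA7 software. The normalized table deposited by the authors equals Ct minus the mean of the 4 U6 wells of the sample (largest difference 7.1e-15). The deposited tables of the authors' own comparisons, fold changes and p-values, were not used. Cards give no molecule count, and determined wells stand in for depth. Wells other than U6 were single, and 2 tissue samples limit the precision of every comparison with tissue.

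Groups were taken from titles, sources and fluorescence. An assay was tested when no more than 3 of the 10 sorted samples were undetermined. Differences in log2 level, which is minus Ct, were tested with limma 3.58.1 in R 4.3.3 (two-sided, Benjamini-Hochberg over 222 assays, threshold 0.05) on the U6-scaled values, with the 10 sorted samples for stellate against non-stellate and all 12 for tissue. The fit was tested on simulated data with independent noise and planted changes larger than the member differences between the sorted groups. That run had no undetermined wells and does not tell how often smaller differences would be called. Median centring used the 176 assays determined in all samples. Other alternatives changed the reference RNAs, the undetermined wells, the filter, the block and the samples. Those joining median centring to missing wells or to left-out samples, the block with median centring for tissue, and the readings relative to miR-379 were added after the values had been seen.

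The labels give labelled and unlabelled cells of 5 biological replicates, so equal numbers were taken as paired. Within pairs 1 to 5, deviations from group means correlated at 0.331, 0.119, 0.256, 0.155 and 0.0743 across assays, against a mean of -0.0481 for different numbers.

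All 10 members were named, together with the 5 assays most like the mean of the 6 members determined in all samples, by Pearson's r over the sorted samples, the domain assays past the threshold and the marker lists. The members and lists were chosen with earlier results of these data known.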

Additional observations from a re-analysis of the deposited data

Results flagged for a closer look

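One of the 20 sets of 5 sorted values of a member held a sample far from the rest, and chance alone marks about 1 in 20 such sets. MiR-494 in non-stellate 5 stood at a U6-scaled Ct of 19.8, while the other non-stellate samples gave 12.1 to 13.9. The gap to its nearest neighbour was 0.763 of the range of the group, over the limit of 0.71 for 5 samples. The well was undetermined, so its value is the 40 entered for it minus U6, and that sample also had 4 of 10 members undetermined and the fewest determined assays (203).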

How the results depend on the processing

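No miRNA and no member passed between stellate and non-stellate cells under any alternative run, with the replicate block (0 members, 0 assays) included, and the member median ranged from 0.46 to 1.32 when samples or pairs were left out in turn. The block moved no call of a member against tissue either (9 of 10, 141 assays). The sign of some members between the sorted groups did turn. MiR-376c was -0.15 under median centring, alone and with the block, -1.28 with undetermined wells missing, -0.75 with Ct capped at 35 and -1.35 with wells missing and median centring. Leaving out samples in turn took it from -1.004 to 1.29. Without non-stellate 3 and 5, miR-376c was -2.32, miR-380-5p -0.58 and miR-379 -0.0098, and with median centring as well -2.48, -0.74 and -0.17, with miR-495 at -0.021. MiR-380-5p was -0.034 with Ct capped at 35 and -0.49 with wells missing and median centring. The causes were not tested.

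Against tissue, the member median of 5.37 became 2.38 under median centring, with or without the block, 1.90 with wells missing as well and 2.02 without stellate 3 and non-stellate 3 and 5. The median over all assays moved with it by construction. The number of members called was 6 of the 6 determined everywhere, and 7 to 10 of 10 under the other alternatives. The lowest number of assays called was 97, without tissue 1. Under median centring miR-494 was -0.60 with wells missing and -0.38 without stellate 3 and non-stellate 3 and 5, where miR-379 was -0.035. Ct capped at 35 brought miR-494 past the threshold (2.63, adjusted p = 0.0131 by limma). Single wells and undetermined readings near the end of the Ct range limit miR-376c, miR-329, miR-380-5p and miR-494 most.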
